A study of Mus musculus with 9 samples.

Results

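The genes described here encode the proteins of the cytosolic ribosome of the mouse. They were taken by name from the gene tables of 9 RNA-seq libraries, as symbols that start with Rpl or Rps and a number together with Rplp0, Rplp1, Rplp2 and Rpsa, leaving out names of pseudogenes and the kinases named Rps6k. This gave 92 of 55274 gene identifiers. Of these, 76 are the constitutive genes, 15 are paralogs or retrocopies of them, and 1, Rps19bp1, encodes a protein that binds a ribosomal protein and is not a subunit itself. Members were tested where 3 or more of the 9 libraries had 1 FPKM or more, which held for 89 of them. The 3 that fell short were Rpl3l, Rpl10l and Rpl39l.

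A ribosome is built from a large and a small subunit, each made of ribosomal RNA and a set of proteins that are needed in matched amounts. The protein genes are transcribed in the nucleus, their products are imported, and the subunits are assembled in the nucleolus with the help of many further proteins. Their mRNAs are among the most abundant of growing blood progenitors and typically begin with a run of pyrimidines, through which growth signals control their translation.

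The libraries were made from bone marrow of C57BL/6J mice that had received 5-fluorouracil at 150 mg/kg 4 days before harvest. All cells were stimulated for 48 h, transduced with retroviral MSCV vectors, sorted by the fluorochrome of the vector and grown with IL-6, IL-3 and stem cell factor. Group NRASG12D (n = 3 libraries) carried an active form of the small GTPase NRAS, group NUP98-NSD1 (n = 3) a fusion of a nuclear pore protein with a histone methyltransferase, and group NUP98-NSD1+NRASG12D (n = 3) both, in each case driven by the viral promoter. No library of untransduced or empty-vector cells is among the 9, so NRASG12D cells are the reference in the first pair of comparisons. The labels do not say whether replicates came from separate mice or cultures, and p-values measure the spread between these libraries, which may be technical.

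An FPKM of 1 in a transcript of 1 kilobase stood for an estimated 22.5 to 35.4 fragments, depending on the library. Nras was at 348 to 479 FPKM in the NRASG12D libraries, 47.7 to 51.2 FPKM in the NUP98-NSD1 libraries and 245 to 701 FPKM with both, in the order the labels give, whereas the fusion is not resolved in gene totals. Summed over 8 mast cell markers, the level ran from 29618 to 32115 FPKM in NRASG12D, from 26474 to 31355 FPKM in NUP98-NSD1 and from 732 to 4264 FPKM in NUP98-NSD1+NRASG12D libraries. For 8 granulocyte and monocyte markers, the sums were 30.3 to 107 FPKM, 2933 to 7256 FPKM and 15691 to 26587 FPKM in the same order. All 8 mast cell markers were above 1 FPKM in each library, except that Cpa3 was listed at 0 in every NRASG12D library. Whether this 0 is a true level or a failed estimate was not tested. The near-equal mast cell sums of NRASG12D and NUP98-NSD1 rest on Cpa3, a carboxypeptidase gene, which was at 12564 to 14379 FPKM in NUP98-NSD1: without it the other 7 summed to 29618 to 32115 FPKM, 13361 to 16976 FPKM and 452 to 2443 FPKM in the 3 groups. In NUP98-NSD1 against NRASG12D, Kit, Cma1 and Tpsb2 were lower by log2 differences of -1.26, -1.31 and -1.23 (limma adjusted p = 0.00147, 0.0014 and 0.00402), while Mcpt4 and Hdc were higher by 2.68 and 4.31 (limma adjusted p = 0.00216 and 0.00156). Mpo, Elane, S100a8 and S100a9 of the granulocyte list were at 0 in NRASG12D replicate 1. The other marker list, of lymphoid, erythroid and megakaryocyte genes, summed to 91.4 to 1244 FPKM, with Cd3e, a T cell marker, at 0.0354 FPKM or less throughout. The part of these markers in the results was not tested, and in bulk RNA fewer cells of a type and less RNA per cell cannot be told apart.

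Ribosomal protein genes were abundant in all libraries. The 76 constitutive genes had a median of 231 to 243 FPKM in NRASG12D libraries, 400.2, 383 and 291 FPKM in NUP98-NSD1 replicates 1, 2 and 3, and 515, 259 and 340.5 FPKM in NUP98-NSD1+NRASG12D replicates 1, 2 and 3. All 92 members together held 4.80%, 4.67% and 4.64% of the summed FPKM in NRASG12D libraries. In NUP98-NSD1 libraries they held 6.59%, 6.42% and 5.21%, above every NRASG12D library. In NUP98-NSD1+NRASG12D libraries the share was 7.61%, 4.39% and 5.25%, a range that held the highest and the lowest of the 9 values. The mean share was 6.07% ± 0.749 (SD, n = 3) in NUP98-NSD1 against 4.70% ± 0.0868 (SD, n = 3) in NRASG12D cells, with p = 0.1 in a two-sided exact permutation test, the smallest p that 3 libraries against 3 allow, and 0.3 after Benjamini-Hochberg adjustment over the 3 pairs of groups. The NUP98-NSD1+NRASG12D mean of 5.75% ± 1.67 (SD, n = 3) overlapped both other groups, with exact permutation p-values of 0.4 against NRASG12D and 0.9 against NUP98-NSD1. The 10 genes with the highest FPKM took a share of the sum between 13.1% and 13.3% where NRASG12D acted alone, between 7.73% and 10.2% with the fusion alone and between 5.76% and 10.9% with both. Without the 30 genes that were among the top 10 of any library, Cpa3 included, the shares were 5.61%, 6.91% and 6.49% on average, and the NUP98-NSD1 libraries were still above all NRASG12D libraries.

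**Figure D1:**
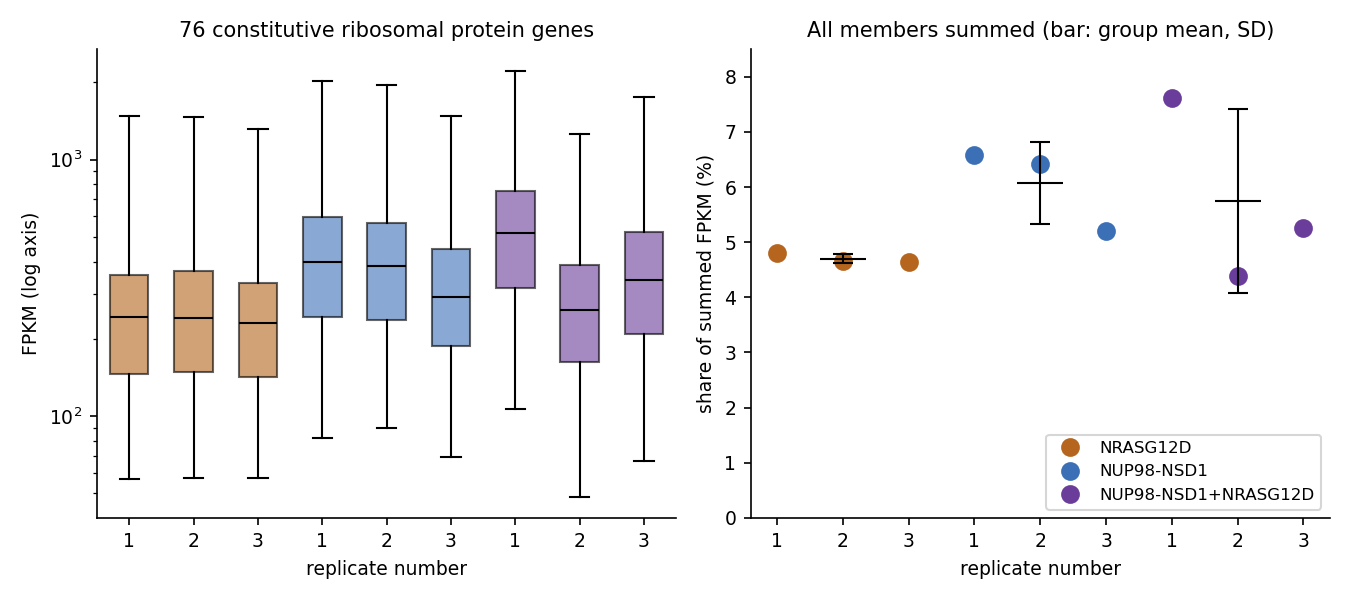
Left, FPKM of the 76 constitutive ribosomal protein genes in each of the 9 libraries on a log axis, with the median, the quartiles (box) and the full range (whiskers). Right, share of summed FPKM held by all 92 members, 1 point per library, with the group mean and SD in black. NRASG12D libraries lie between 4.64% and 4.80%, and NUP98-NSD1+NRASG12D libraries spread from 4.39% to 7.61%.

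The members moved together within groups. In NUP98-NSD1+NRASG12D cells all 76 constitutive genes were highest in replicate 1 and lowest in replicate 2, with a median ratio of 1.95 between these libraries and a range of 1.67 to 2.55. Of the 13493 genes that passed the same filter, 8552 were above their group mean in replicate 1 and 5471 in replicate 2. The median log2 deviation from the group mean was 0.50 and -0.46 over the constitutive genes and 0.13 and -0.08 over all genes. In NUP98-NSD1 cells all 76 were lowest in replicate 3, with a median ratio of highest to lowest library of 1.37. Of all 13493 genes, 4559 were above their group mean in that replicate. The median deviation there was -0.28 over the constitutive genes and -0.08 over all genes. In NRASG12D cells the median ratio of highest to lowest library was 1.09, and no library held the lowest value of every gene. When each value was divided by the median constitutive gene of its library, the median coefficient of variation across replicates fell to 3.67% in NRASG12D, 3.00% in NUP98-NSD1 and 4.88% in NUP98-NSD1+NRASG12D, from 4.70%, 16.4% and 33.7% before. The 8 granulocyte and monocyte markers did not share 1 order across the same libraries. In NUP98-NSD1+NRASG12D their summed level was 17814, 15691 and 26587 FPKM in replicates 1, 2 and 3. Of the 8, Elane, Prtn3 and Ctsg were highest in replicate 1 and lowest in replicate 2, as the members were, Mpo was highest in replicate 1 and lowest in replicate 3, and S100a8, S100a9, Itgam and Lyz2 were highest in replicate 3 and lowest in replicate 1. In NUP98-NSD1 the sums were 7256, 6695 and 2933 FPKM, and replicate 3 was lowest in Mpo, Elane, Prtn3 and Ctsg, while replicate 2 was lowest in the other 4. The 8 mast cell markers summed to 942 FPKM, 4264 FPKM and 732 FPKM in NUP98-NSD1+NRASG12D replicates 1, 2 and 3. Their part in the result was not tested.

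The first comparison set NUP98-NSD1 against NRASG12D cells. Genes were called where the adjusted p from limma on log2(FPKM + 1) was under 0.05, with Benjamini-Hochberg adjustment over all 13493 genes tested. Of the 89 members tested, 77 rose and 0 fell, where 42.2% of all genes tested rose and 9.98% fell. The median log2 difference was 0.59 over the members and 0.27 over all genes tested, and 86 members lay above the latter. In 80 members every NUP98-NSD1 library was above every NRASG12D library, against 50.7% of all genes. By subunit, 39 of 45 constitutive genes of the large subunit and 29 of 31 of the small subunit rose, with medians of 0.59 and 0.61. At an unadjusted p under 0.05 there were 86 members, each with a positive difference, against 8026 of 13493 genes in either direction. As the members moved together between libraries, they are not separate results.

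The count of 77 members called higher depended on the scale. FPKM were larger in most genes of the NUP98-NSD1 libraries, so that the median of all genes moved to -0.01 on the log2 scale after median-ratio scaling, to -0.07 after quantile normalization and to 0.13 after scaling to a common sum. The number of members called higher was then 33, 55 and 61, with 0 called lower each time. Of all genes, 22.67%, 19.41% and 32.34% were then called higher. The median of the members stayed 0.27, 0.42 and 0.29 above the median of all genes, compared with 0.32 without rescaling. A single fit over all 9 libraries, in which the wide spread of the NUP98-NSD1+NRASG12D libraries enters the error, called 5 members higher. It called 19.3% of all genes higher. Without NUP98-NSD1 replicate 3 the count of members was 88, where 47% of all genes were called higher. Under 1 or more of the 3 scalings, 8 members changed direction, namely Rpl10, Rpl22l1, Rpl32l, Rpl35, Rpl37a, Rplp1, Rps26 and Rps7.

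The largest rise among members whose groups did not overlap was that of Rpsa, which encodes a small subunit protein that also serves as a laminin receptor. Rpsa (chromosome 9 of GRCm38, 120127689 to 120132369, plus strand) had 125, 125 and 109.6 FPKM in NRASG12D, 291, 273 and 189 FPKM in NUP98-NSD1 and 388, 186 and 271 FPKM in NUP98-NSD1+NRASG12D libraries. Both groups with the fusion were above all NRASG12D libraries and overlapped each other. The log2 difference between NUP98-NSD1 and NRASG12D was 1.04 (standard error 0.17, limma adjusted p = 0.00301). Rps16 followed with 281, 284 and 238 FPKM in NRASG12D and 566, 557 and 402 FPKM in NUP98-NSD1 libraries, a log2 difference of 0.91 (limma adjusted p = 0.00348). Rpl35a had a log2 difference of 0.84 and Rps27a of 0.84, with limma adjusted p-values of 0.00254 and 0.00728. Rps27a is translated as a fusion of ubiquitin with a ribosomal protein, while Rps16 and Rpl35a encode plain subunits.

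At the other end, Rpl37a had 211, 212 and 211 FPKM in NRASG12D and 265, 256 and 197 FPKM in NUP98-NSD1 libraries, so that the groups overlapped. Its log2 difference was 0.16 (standard error 0.12, limma adjusted p = 0.28), and it was negative under all 3 scalings. Rpl35, Rpl22l1 and Rps26 came next, with log2 differences of 0.26, 0.26 and 0.28, limma adjusted p-values of 0.0776, 0.107 and 0.16 and directions that also changed with the scaling. The constitutive genes of highest level moved less than those of lowest level: the median log2 difference was 0.47 in the 19 genes of highest mean FPKM over all libraries and 0.63 in the 19 of lowest mean FPKM. Of the 19 highest, 14 were called higher, and of the 19 lowest, 18 were, against 42.2% of all genes. Among the members of highest mean FPKM were Rpl32 and Rpl13a, both of the large subunit, which did not pass the threshold, with log2 differences of 0.34 (limma adjusted p = 0.0795) and 0.41 (adjusted p = 0.0505). The 3 of lowest mean level were the copies Rps4l, Rps12l1 and Rps3a3.

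**Figure D2:**
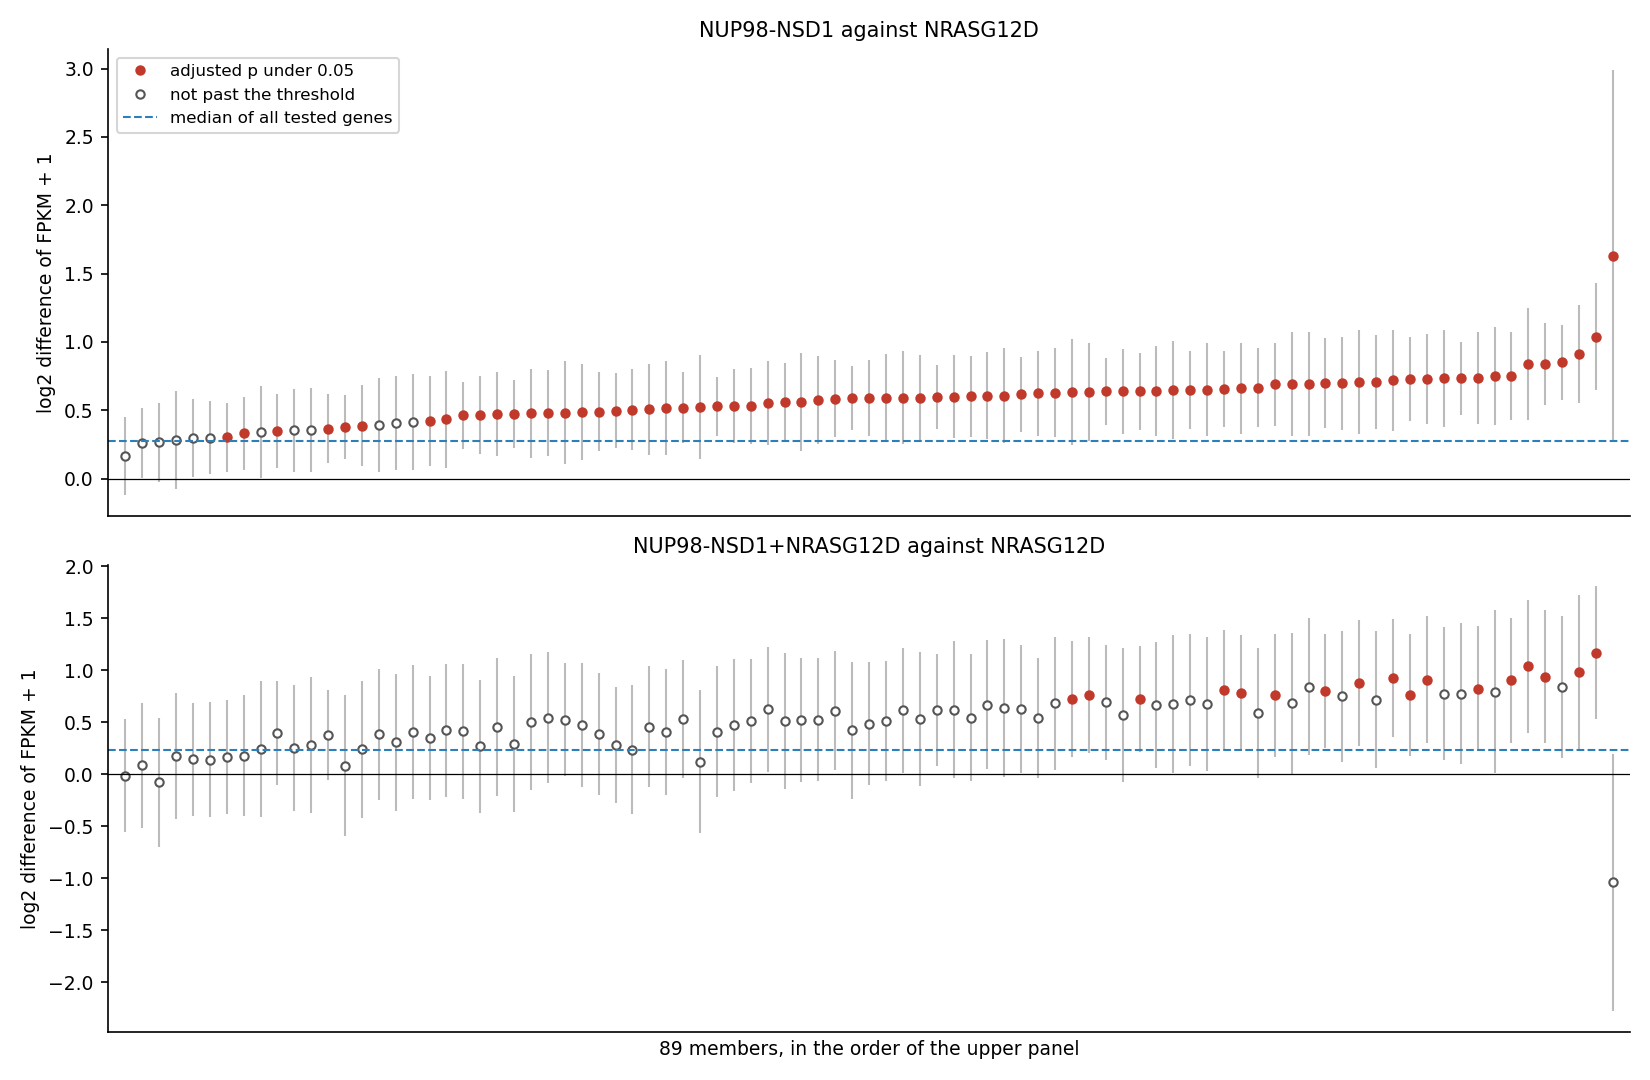
Log2 differences of FPKM + 1 with 95% confidence intervals for the 89 members tested, against NRASG12D, in NUP98-NSD1 (upper panel) and NUP98-NSD1+NRASG12D cells (lower panel), ordered by the upper panel. Filled points passed an adjusted p of 0.05, which were 77 members in the upper and 17 in the lower panel, of all members 8 and 16 change direction under another scaling, and the dashed line is the median of all genes tested, 0.27 and 0.23.

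The stalk of the large subunit, which recruits translation factors, is formed by the products of Rplp0, Rplp1 and Rplp2. Rplp0 had 688, 696 and 699.5 FPKM in NRASG12D, 1324, 1234 and 867 FPKM in NUP98-NSD1 and 1748, 877 and 1254 FPKM in NUP98-NSD1+NRASG12D libraries, with no overlap between the first group and the others. Rplp2 was at 225 to 245 FPKM, 333 to 425 FPKM and 289 to 619 FPKM. Rplp1, which forms a dimer with the product of Rplp2, ranged over 425 to 491 FPKM, 506 to 621 FPKM and 413 to 695 FPKM. In NUP98-NSD1 against NRASG12D, Rplp0 rose by 0.69 (limma adjusted p = 0.0108), Rplp2 by 0.73 (adjusted p = 0.00269) and Rplp1 by 0.30 (adjusted p = 0.0496) on the log2 scale, the last with a change of direction under median-ratio scaling.

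Several members have roles beyond a general subunit. Rps6 is phosphorylated downstream of mTOR, Rps14 and Rps19 are lost or mutated in human anemias of the marrow, Rpl5 and Rpl11 bind MDM2 and so control p53, and Rpl10 is mutated in T cell leukemia. In NUP98-NSD1 against NRASG12D cells, Rpl11 rose by 0.73, Rps6 by 0.59, Rpl5 by 0.59, Rps14 by 0.47 and Rps19 by 0.42 on the log2 scale, with limma adjusted p-values of 0.00445, 0.00936, 0.0037, 0.0207 and 0.0383. Rpl10 had 598, 605 and 583 FPKM in NRASG12D and 817, 768 and 628 FPKM in NUP98-NSD1 libraries, a log2 difference of 0.30 that did not pass the threshold (adjusted p = 0.0604). In all of these the levels of the groups did not overlap. Rpl22, a large subunit gene that is deleted in some leukemias, rose by 0.65 (adjusted p = 0.0116), from 77.6 to 86.8 FPKM to 99.2 to 146 FPKM.

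With both transgenes the spread was wider. In NUP98-NSD1+NRASG12D against NRASG12D, 17 of 89 members rose and 0 fell, where 24.2% of all genes tested rose and 14.1% fell, so that the share of members called higher, 19.1%, was below that of all genes. The median log2 difference was 0.53 over the members and 0.23 over all genes. In 51 members all NUP98-NSD1+NRASG12D libraries were above all NRASG12D libraries, against 38.7% of all genes. At an unadjusted p under 0.05 there were 37 of 89 members, against 6697 of 13492 genes, in either direction. The largest rises were those of Rpsa, Rps27a, Rps16, Rpl35a and Rps10, by 1.16, 1.03, 0.98, 0.94 and 0.92 on the log2 scale, with limma adjusted p-values of 0.0152, 0.023, 0.0441, 0.0331 and 0.0233. Rps10, a small subunit gene, had 153, 167 and 164 FPKM in NRASG12D and 416, 222 and 310.0 FPKM in NUP98-NSD1+NRASG12D libraries, and no library of the latter was below one of the former. The comparison shares its NRASG12D libraries with the first one.

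The count of 17 rested on few libraries. It was 0 without any one of the 3 NRASG12D libraries, 19 without NUP98-NSD1+NRASG12D replicate 1, 61 without replicate 2 and 1 without replicate 3, where the 1 was Rpsa. Of all genes, 12.8% to 14.33% were called higher in the fits without an NRASG12D library. The fits without NUP98-NSD1+NRASG12D replicates 1, 2 and 3 called 25.55%, 31.14% and 19.37% of all genes higher. The median of the members ranged from 0.29 without replicate 1 to 0.77 without replicate 2. After median-ratio scaling, quantile normalization and scaling to a common sum, 14, 3 and 3 members were called higher, the last 3 being Rpsa, Rps10 and Rps27a under both, and 0 were called lower each time. Of all genes, 19.75%, 15.97% and 17.15% were then called higher, so that the share of members called was below that of all genes. The median of the members was 0.27, 0.28 and 0.27 above that of all genes, compared with 0.31 without rescaling. Of the 89 members, 16 changed direction under 1 or more of the scalings, among them Rpl10, Rpl35, Rpl41 and Rplp1.

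Between the groups with the fusion, 1 member was called. In NUP98-NSD1+NRASG12D against NUP98-NSD1, 0 members rose and 1, Rps4l, fell, where 2.3% of all genes tested rose and 6.31% fell. It was also the 1 member at an unadjusted p under 0.05, where 3316 of 13491 genes were, in either direction. The median log2 difference was -0.01 over the members and -0.06 over all genes, and its sign changed with the scaling and with the library left out, from -0.28 without NUP98-NSD1+NRASG12D replicate 1 to 0.22 without replicate 2. The constitutive genes lay between -0.29 for Rpl41 and 0.21 for Rps10. For Rpsa the 95% confidence interval of the difference was -0.61 to 0.87, which includes differences in both directions.

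Beside the common shift, some genes changed their level relative to the other ribosomal protein genes. To measure this, each library was centred on the median of its constitutive members and the same fit was run. In NUP98-NSD1 against NRASG12D, 4 members were then called higher and 2 lower, where 9.78% and 35% of all genes tested were called. Among the higher ones were Rpsa, Rps16 and Rpl35a, by 0.46, 0.34 and 0.27 on the log2 scale (limma adjusted p = 0.00835, 0.0274 and 0.0377). The lower ones were Rpl37a at -0.41 and Rpl35 at -0.31 (limma adjusted p = 0.00912 and 0.0476). In NUP98-NSD1+NRASG12D against NRASG12D, Rpsa was called higher by 0.58 (adjusted p = 0.0206), and Rpl22l1, Rpl37a, Rpl41 and Rpl35 were called lower, at -0.66, -0.59, -0.50 and -0.49 (limma adjusted p = 0.0192, 0.0199, 0.0425 and 0.0395). Here 7.83% of all genes were called higher and 17.9% lower. Between the groups with the fusion limma called 0 members after centring, against 0% and 0.0148% of all genes higher and lower, and 1 members were at an unadjusted p under 0.05.

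These relative levels were tight. Rpsa stood at 47.5% to 51.8% of the median constitutive gene in NRASG12D libraries, at 64.9% to 72.8% with the fusion and at 71.9% to 79.7% with both transgenes. Rpl37a went the other way, at 87.1% to 91.5%, 66.1% to 67.8% and 54.7% to 62.0%. In both genes all NRASG12D libraries stood apart from the other 6, including NUP98-NSD1+NRASG12D replicate 2, whose absolute levels were close to those of NRASG12D cells. Rpl22l1, a paralog of Rpl22 that can take its place in the ribosome, was at 37.5% to 44.4% in NRASG12D, 30.8% to 36.3% with the fusion and 24.1% to 27.7% with both, with a call only in the comparison of the last with the first. For the ratio of the large to the small subunit, FPKM were summed over all 92 members by the start of their names, copies and Rps19bp1 included. This ratio was 1.42 ± 0.031 (SD, n = 3) in NRASG12D, 1.36 ± 0.00564 (SD, n = 3) in NUP98-NSD1 and 1.35 ± 0.0335 (SD, n = 3) in NUP98-NSD1+NRASG12D libraries. Both groups with the fusion were below every NRASG12D library, with p = 0.1 in two-sided exact permutation tests, the smallest possible, and 0.15 after adjustment over the 3 pairs.

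**Figure D3:**
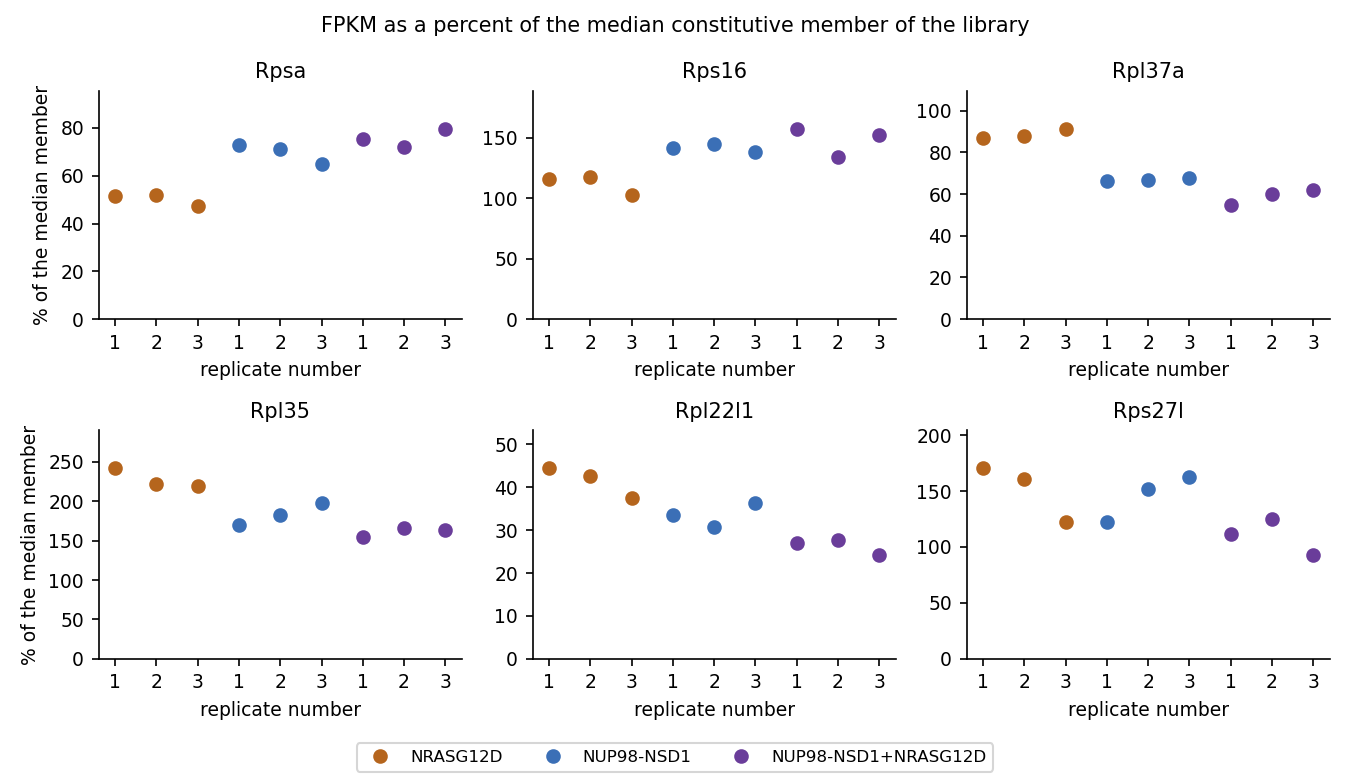
FPKM of 6 members as a percent of the median constitutive ribosomal protein gene of the same library, 1 point for each of the 9 libraries. Rpsa and Rps16 are lowest and Rpl37a and Rpl35 highest in the NRASG12D libraries, Rpl22l1 is lowest with both transgenes, and Rps27l spreads within groups.

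The start of these genes was read for the pyrimidine run typical of them. RefSeq start windows, from 250 bases before to 50 bases after the first transcribed base on GRCm38.p6, were found for 56 of the 76 constitutive genes, with 66 windows in all. A C as the first base followed by 4 or more bases that were each C or T was present in 19.7% of these windows and in 2.51% of the 32851 windows of all genes. A run of 8 or more C or T that began with a C within 10 bases of the start, on the strand of the gene, was present in 34.8% and 8.11%. Some windows are given here, 15 bases to each side of the start, with the longest run of C or T that begins with a C within 10 bases of the start in capitals. Rpl35a, Rpsa, Rpl35 and Rpl37a are shown because they set members higher beside members lower relative to the rest, and Rps10, Rplp2 and Rps6 as further examples of the run. Rpl35a has further start windows that are not shown.
Rpl35a, chr16:33056467-33056496, plus strand: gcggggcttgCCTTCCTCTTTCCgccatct
Rps10, chr17:27635230-27635259, minus strand: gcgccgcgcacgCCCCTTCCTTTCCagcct
Rplp2, chr7:141447636-141447665, plus strand: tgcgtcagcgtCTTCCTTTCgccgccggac
Rps6, chr4:86857353-86857382, minus strand: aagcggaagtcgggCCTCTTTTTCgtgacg
Rpl35, chr2:39005117-39005146, minus strand: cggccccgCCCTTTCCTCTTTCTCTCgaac
Rpsa, chr9:120127751-120127780, plus strand: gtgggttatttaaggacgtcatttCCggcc
Rpl37a, chr1:72711245-72711274, plus strand: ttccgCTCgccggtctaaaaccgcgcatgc

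Members with and without the run occur on both sides. Rpl35, with a run of 18, and Rpl37a, with a run of 3, were both lower relative to the other members, and Rpl35a and Rpsa, which differ in the same way, were both higher. Over the 23 constitutive genes with a run of 8 or more the median log2 difference of NUP98-NSD1 against NRASG12D was 0.59, and over the 33 without it 0.61. The first base of a RefSeq entry is not measured in these libraries, and a gene can start at several places.

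Many members share sequence with other genes, which bears on what a gene total can show. Of all stretches of 50 bases, the length of a read, the constitutive members had a median of 56.0% also present in transcripts of other genes, and 44 of 76 had more than 50%. The annotation used for this was GENCODE M21, in which 54867 of the 55274 identifiers had equal coordinates. How the authors treated fragments with several alignments is not given in the sources used here. Of the members tested, 6 had less than 10% shared stretches. They were 4 constitutive genes, among them Rpl8, Rps20 and Rps3, together with Rpl7l1 and Rps19bp1. All 6 were called higher in NUP98-NSD1 against NRASG12D, with a median of 0.60, where 42.2% of all genes were. None was called in NUP98-NSD1+NRASG12D against NRASG12D, where 24.2% of all genes were called higher. There 3 of the 6 were at an unadjusted p under 0.05, against 6697 of 13492 genes, and the median was 0.63.

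Rps27rt, Rps12l1, Rpl37rt, Rps3a2, Rps3a3, Rpl6l and Rpl32l, which match the coding sequence of the parent at 95.1% to 100% of its bases, stayed at an almost fixed percent of the parent's FPKM. Rps27rt was at 15.8% to 17.3% of Rps27 and Rps12l1 at 13.0% to 14.7% of Rps12 over the 9 libraries. For these 7 pairs the highest percent was at most 1.17 times the lowest. Of the stretches of 50 bases in the copy, the share also found in the parent was 100% for Rps12l1, 91.1% for Rps27rt, 76.7% for Rps3a2, 61.8% for Rpl6l, 49.6% for Rps3a3, 38.7% for Rpl37rt and 19.4% for Rpl32l. Whether these copies are expressed was not tested. The first 60 coding bases of Rps27 and the matching bases of its copies, from GENCODE M21 on GRCm38, show the difference between a copy of this kind and a diverged paralog, with bases that differ from the parent in capitals.
Rps27: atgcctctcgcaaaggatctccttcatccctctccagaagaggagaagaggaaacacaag
Rps27rt: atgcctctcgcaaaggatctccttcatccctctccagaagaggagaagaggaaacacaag
Rps27l: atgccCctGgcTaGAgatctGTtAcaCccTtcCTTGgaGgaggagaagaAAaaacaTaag

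Rps27l, a paralog induced by p53, is 76.1% identical to Rps27 over the coding sequence and had 413, 388 and 283 FPKM in NRASG12D, 489, 584 and 472 FPKM in NUP98-NSD1 and 574, 322 and 315 FPKM in NUP98-NSD1+NRASG12D libraries. NUP98-NSD1 libraries were above all NRASG12D libraries, by 0.52 on the log2 scale (limma adjusted p = 0.03). It did not keep to its parent, from 86.2% to 128% of Rps27. Rpl22l1 ranged from 68.5% to 131.5% of Rpl22 and Rpl36al from 119% to 187.5% of Rpl36a. Rpl7l1 ranged less, from 27% to 35.7% of Rpl7, the highest percent being 1.32 times the lowest. Of these paralogs, Rpl36al rose by 0.55 (limma adjusted p = 0.0115) and Rpl7l1 by 0.36 (limma adjusted p = 0.0253) in NUP98-NSD1 against NRASG12D, and none was called in NUP98-NSD1+NRASG12D against NRASG12D.

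**Figure D4:**
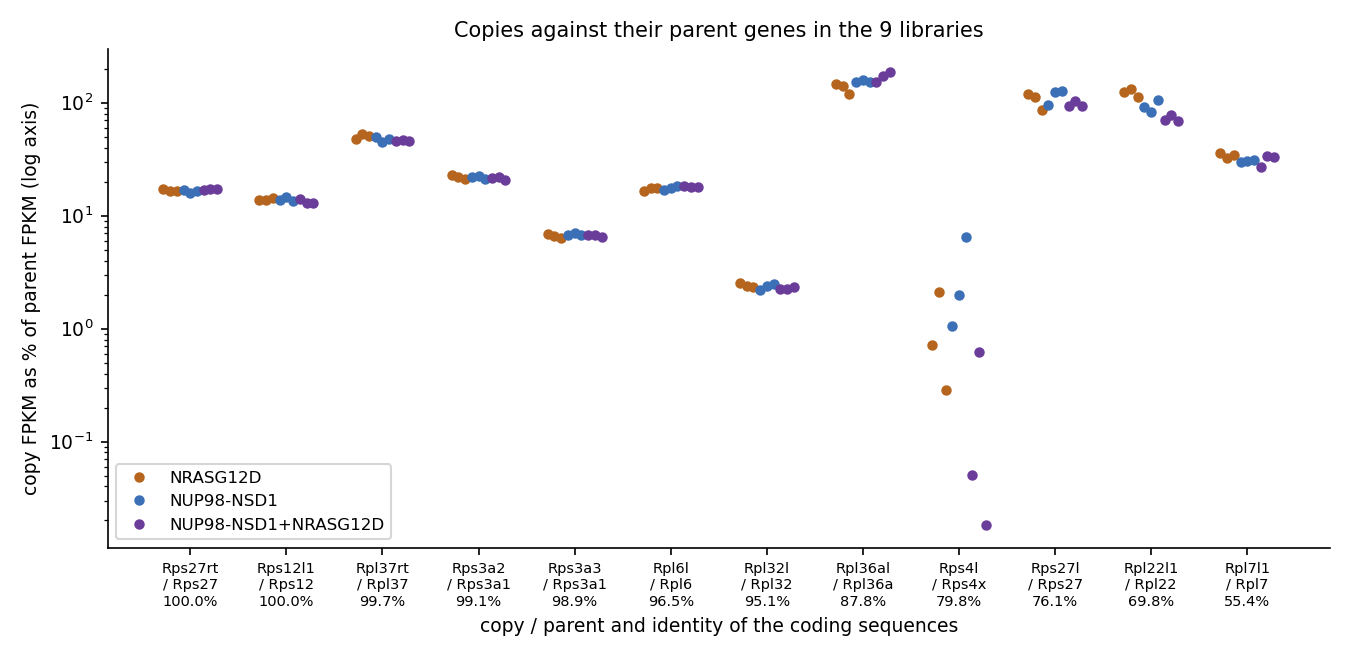
FPKM of each tested copy as a percent of the FPKM of its parent gene on a log axis, 1 point per library, ordered by the identity of the coding sequences given under the names. The 7 copies with at least 95.1% identity keep a fixed percent in all 9 libraries, and Rps4l ranges from 0.0183% to 6.51%.

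Rps4l had the widest range. It is a copy of the X-linked Rps4x with 1 exon, listed as a transcribed processed pseudogene in GENCODE M21, on chromosome 6 (148354656 to 148355598, plus strand), and matches the parent at 79.8% of its coding bases, and 14.9% of its stretches of 50 bases occur elsewhere. The first 60 coding bases of the parent are shown above the matching bases of the copy, with differences in capitals.
Rps4x: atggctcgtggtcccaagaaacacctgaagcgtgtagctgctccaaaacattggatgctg
Rps4l: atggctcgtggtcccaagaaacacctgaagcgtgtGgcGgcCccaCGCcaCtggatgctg

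Rps4l had 1.70, 5.11 and 0.697 FPKM in NRASG12D, 4.24, 7.44 and 17.7 FPKM in NUP98-NSD1 and 0.235, 1.49 and 0.0525 FPKM in NUP98-NSD1+NRASG12D libraries. Each NUP98-NSD1 library was above each NUP98-NSD1+NRASG12D library, whereas the first group overlapped both. Lower values without overlap were found in 19.8% of all genes. The log2 difference of NUP98-NSD1+NRASG12D against NUP98-NSD1 was -2.66 (standard error 0.52, limma adjusted p = 0.028), while Rps4x differed by -0.11 (adjusted p = 0.90). NUP98-NSD1 against NRASG12D gave 1.63 (adjusted p = 0.049) with overlapping groups, and NUP98-NSD1+NRASG12D against NRASG12D gave -1.04 (adjusted p = 0.15). NUP98-NSD1 replicate 3, the library with the highest Rps4l, had the lowest level of all 76 constitutive genes within its group. Of the fits without a single library, the call between the groups with the fusion was lost without NUP98-NSD1 replicate 2, NUP98-NSD1 replicate 3 and NUP98-NSD1+NRASG12D replicate 3, and it was also lost after median-ratio scaling (adjusted p = 0.0504) and without the filter on low values (adjusted p = 0.183).

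Genes with related tasks were read beside the members. Fau, which encodes a ribosomal protein fused to a ubiquitin-like protein, and Rack1, a scaffold on the small subunit, rose in NUP98-NSD1 against NRASG12D, by 0.49 and 0.74 (limma adjusted p = 0.0235 and 0.00279). Of 31 nucleolar assembly factors 30 rose and 0 fell, with a median log2 difference of 0.77. Among them were Npm1, a shuttling chaperone, at 1.28 and Ncl, nucleolin, at 1.13, with limma adjusted p-values of 0.00221 and 0.00131. Of 23 translation factors 15 rose and 0 fell, with a median of 0.59, and Eif3k, a subunit of the initiation factor that binds the small subunit, had the largest called rise, of 0.83 (limma adjusted p = 0.00564). Of 14 genes of RNA polymerase I and its factors, which make the ribosomal RNA, 9 rose and 0 fell, with a median of 0.43. The background is again 42.2% of all genes. In NUP98-NSD1+NRASG12D against NRASG12D, 12, 6 and 2 genes of these 3 lists rose and 0 fell, with medians of 0.72, 0.55 and 0.39 and a background of 24.2%. Between the groups with the fusion 0 were called. There 1 gene of RNA polymerase I was at an unadjusted p under 0.05, against 3316 of 13491 genes. These counts moved with the scale as well: in NUP98-NSD1 against NRASG12D, after median-ratio scaling, 22 nucleolar factors, 10 translation factors and 5 genes of RNA polymerase I were called higher, 1 of the last, Znrd1, a subunit of the polymerase, was called lower, and the medians were 0.44, 0.25 and 0.12. Of all genes, 22.67% were called higher in that fit. In NUP98-NSD1+NRASG12D against NRASG12D, median-ratio, quantile and common-sum scaling left 9, 7 and 8 nucleolar factors, 4, 3 and 3 translation factors and 1, 1 and 1 gene of RNA polymerase I called higher. The background was then 19.75%, 15.97% and 17.15% of all genes. Znrd1 was called lower under all 3 scalings, and Tpt1, a gene whose mRNA is translated together with those of the ribosome, was called lower under quantile normalization. The medians were then 0.49, 0.37 and 0.48 for the nucleolar list, 0.31, 0.19 and 0.31 for the translation factors and 0.16, 0.10 and 0.16 for RNA polymerase I. In NUP98-NSD1 against NRASG12D the call on Fau was lost under each scaling, with differences of 0.15, 0.30 and 0.32 and limma adjusted p-values of 0.275, 0.0687 and 0.0545. Rack1 stayed called higher, at 0.41, 0.48 and 0.58 with limma adjusted p-values of 0.00814, 0.00518 and 0.00331.

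**Figure D5:**
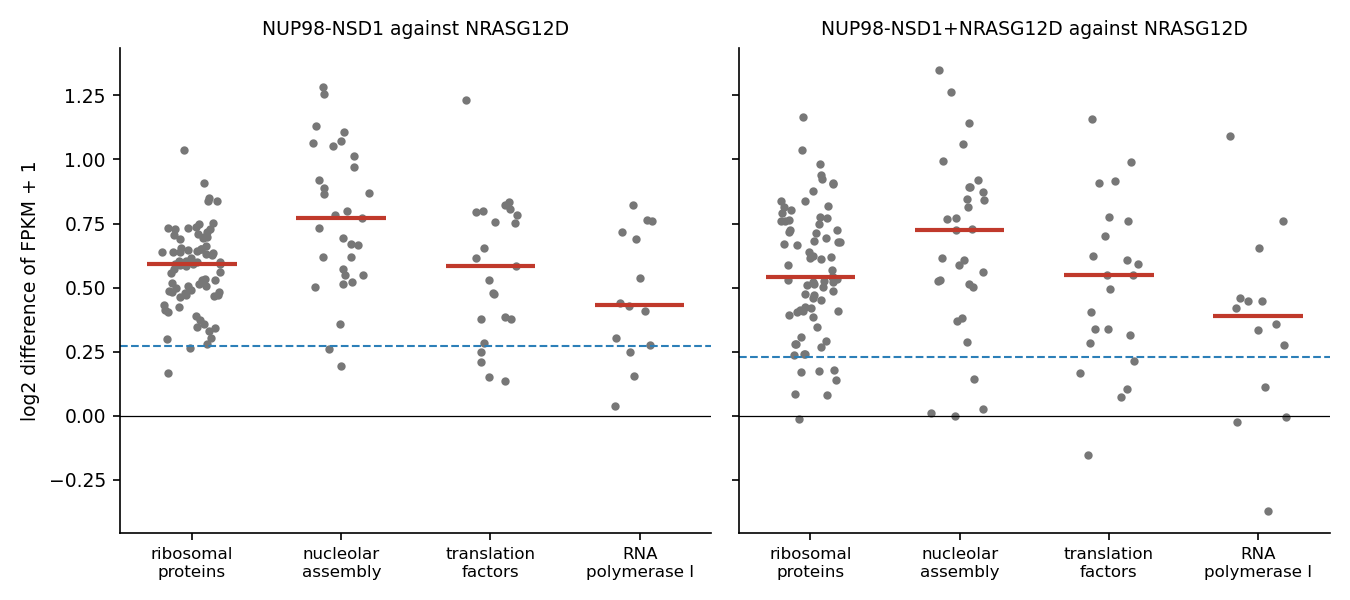
Log2 differences of FPKM + 1 against NRASG12D in NUP98-NSD1 (left) and NUP98-NSD1+NRASG12D cells (right) for the 76 constitutive ribosomal protein genes, 31 nucleolar assembly factors, 23 translation factors and 14 genes of RNA polymerase I. Points are genes, red lines list medians, which in the left panel run from 0.43 to 0.77, and the dashed line the median of all genes tested, while the list medians stay positive under median-ratio, quantile and common-sum scaling.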

How the data were processed

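The study sequenced RNA of transduced mouse bone marrow cells in 9 libraries, 3 for each of 3 groups, with paired reads of 50 bases. The values used are FPKM per gene as deposited by the authors, made according to the submitters' processing notes with STAR 2.7.2a and Cufflinks 2.2.1 on GRCm38.p6. How fragments with several alignments or of either strand were counted is not given in the sources used here. The study's methods name DESeq2 on counts, which was not run since FPKM are not counts.

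Lines of 1 gene identifier were summed and groups were taken from the sample labels. Of all genes, the 13493 with 1 FPKM or more in 3 or more of the 9 libraries were tested, and log2(FPKM + 1) was compared between pairs of groups with limma 3.58.1 in R 4.3.3, each fit holding the 6 libraries of its comparison, with Benjamini-Hochberg adjustment at 0.05. Fold changes on this scale understate those of low genes. For shares and subunit ratios, 12 exact permutation tests were run, each two-sided: the share over 3 denominators and the subunit ratio, for 3 pairs of groups each. P-values of the main share and of the ratio were adjusted over the 3 pairs. Alternatives were a pseudocount of 0.1, no filter, quantile, median-ratio and common-sum scaling, and centring on the constitutive members. Further ones were array weights, a single fit of 9 libraries, a replicate block and leaving out each library. The fit was tested on simulated data with independent noise in each gene. Such data do not bear on counts of members that move together. Python 3.11.15, numpy 2.4.6, pandas 2.3.3, Biopython 1.88 and matplotlib 3.10.9 were used for the rest.

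Depth was estimated from the steps of FPKM in 3386 genes over 2500 bases, of which 82.4% to 85.3% of values were whole multiples within 0.15. The search settings of this estimate were adjusted after its first results were seen, and no test uses it. Start windows are from RefSeq and coding sequences from GENCODE M21.

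The members and gene lists were chosen with earlier results of these data known. The genes named were the 5 largest rises and falls among called members without overlap, the copies with their parents, the stalk genes and Rpsa, Rps6, Rps14, Rps19, Rpl5, Rpl11, Rpl10 and Rpl22, Fau and Rack1, the 3 members of highest and of lowest mean, and up to 4 genes per related list. Some genes that this rule names are not reported here. Rpl37a, Rpl35, Rpl41, Rps26 and the members called after centring were named after their values were seen. The subunit ratio, and the splits by expression level, start run, hosted snoRNA, chromosome X and shared stretches, were also chosen then, and Rpl6l and Rpl32l were added to the copies on seeing their names. Splits by hosted snoRNA and chromosome X are not described.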

Additional observations from a re-analysis of the deposited data

Results flagged for a closer look

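Rpl3l, a paralog of Rpl3 known from muscle, did not reach the filter but was present where the reference group had none. It was listed at 0 in the 3 NRASG12D libraries, where 3 fragments would give 0.0616 to 0.0971 FPKM, a limit for counting error only. It had 0.588, 0.368 and 0.0900 FPKM in NUP98-NSD1 and 0.688, 0.222 and 0.472 FPKM in NUP98-NSD1+NRASG12D libraries, which corresponds to an estimated 2.98 to 26.6 fragments. The difference was not tested.

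The 304 identifiers named as ribosomal protein pseudogenes are outside the name rule. Their summed FPKM was 3838 in the lowest and 8267 in the highest library, or 15.2% to 16.1% of the sum of the members, so that the percent was nearly the same in all 9 libraries. Fragments of these pseudogenes and of the members cannot be told apart where their sequences are equal.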

How the results depend on the processing

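For NUP98-NSD1 against NRASG12D, 77 members were called higher, against 5 in a single fit of 9 libraries, 33 with median-ratio scaling, 35 without the filter and 52 to 88 without single libraries. Of all genes, 42.16% were called higher, against 19.3%, 22.67%, 9.216% and 28.89% to 47% in the same order. The median of 0.59 over the members became 0.25 with median-ratio scaling and 0.35 with quantile normalization. For NUP98-NSD1+NRASG12D against NRASG12D, 17 were called, against 3 with a common sum, 3 with quantile normalization, 29 in a single fit, 46 with array weights, 0 without the filter and 0 to 61 without single libraries. Of all genes, 24.21% were called higher, against 17.15%, 15.97%, 31.48%, 30.9%, 4.566% and 12.8% to 31.14% in the same order. Deviations of libraries with the same replicate number from their group means had correlations from -0.177 to 0.160. With 3 libraries per group, these cannot tell whether the samples were paired. A replicate block gave 9 higher and 1 lower, Rps4l, in this comparison, where 21.29% of all genes were called higher. In the first comparison it gave 81 higher, where 41.58% of all genes were. For NUP98-NSD1+NRASG12D against NUP98-NSD1, 1 was called lower, against 2 with array weights, 0 with median-ratio scaling, 0 without the filter and 0 to 3 without single libraries. Of all genes, 8.612% were called in either direction, against 25.94%, 6.618%, 0.4038% and 2.097% to 18.59% in the same order. The median of -0.01 over the members was 0.089 with median-ratio scaling, -0.28 to 0.22 without single libraries, 0.0087 in constitutive genes and 0.025 in members with few shared stretches. The causes were not tested. By design, a single fit shares the spread of all groups, and leaving out a library leaves fewer samples.

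Scaling shifts the median of all genes, and with it the direction of members near it. Of calls over all genes in the first comparison, 80.9% were higher, against 49.3% with median-ratio scaling, 43.2% with quantile normalization and 67.5% with a common sum, and in the second 63.1%, against 50.9%, 41.3% and 47.6%. Over 58 results for named genes and 870 alternatives, 619 kept direction and call, 151 lost the call, 43 gained it and 57 changed direction. Of the 57, 28 came from centring on the members. Centring sets the median constitutive member to the same level in every library, so that negative differences of some members follow from the setting itself.

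For NUP98-NSD1 against NRASG12D, directions changed as follows. With centring on the members, a negative value means a smaller rise than that of the median constitutive member. The centred log2 difference was Rps27l -0.049, Rpl22l1 -0.31, Rpl36al -0.018, Rps27rt -0.22, Rpl7l1 -0.21, Rpl37rt -0.18, Rpl32l -0.28, Rplp1 -0.27, Rps14 -0.1, Rps19 -0.15, Rpl10 -0.27, Rpl13a -0.17 and Rpl32 -0.23. With median-ratio scaling, the log2 difference was Rpl22l1 -0.07, Rpl32l -0.034, Rplp1 -0.035 and Rpl10 -0.037. With quantile normalization, the log2 difference was Rpl22l1 -0.041 and Rpl32l -0.006.

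For NUP98-NSD1+NRASG12D against NRASG12D, directions changed as follows. Over the fits without single libraries, the log2 difference ran from -0.16 to 0.27 for Rps27l, -0.36 to 0.11 for Rpl22l1, -0.038 to 0.42 for Rps27rt, -0.04 to 0.37 for Rpl32l, -0.041 to 0.33 for Rplp1 and -0.066 to 0.32 for Rpl10. With a common sum, the log2 difference was Rps27l -0.12, Rpl32l -0.091, Rplp1 -0.073 and Rpl10 -0.1. With array weights, the log2 difference was Rps27l -0.13. With centring on the members, where a negative value again means a smaller rise than that of the median constitutive member, the log2 difference was Rps27l -0.46, Rps27rt -0.33, Rps3a3 -0.041, Rps3a2 -0.069, Rpl7l1 -0.2, Rpl37rt -0.2, Rpl32l -0.44, Rplp1 -0.41, Rps6 -0.05, Rps14 -0.13, Rps19 -0.23, Rpl5 -0.16, Rpl10 -0.44, Rpl13a -0.28 and Rpl32 -0.34. With median-ratio scaling, the log2 difference was Rps27l -0.12, Rpl32l -0.087, Rplp1 -0.069 and Rpl10 -0.1. With quantile normalization, the log2 difference was Rps27l -0.19, Rps27rt -0.067, Rpl7l1 -0.0047, Rpl32l -0.15, Rplp1 -0.11 and Rpl10 -0.087.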
